A study of Arabidopsis thaliana with 6 samples.

Results

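The genes studied here were 41 histone loci of Arabidopsis thaliana, taken by locus identifier from the 33602 rows of each count file. They comprised 27 replication-dependent genes (4 H2A, 10 H2B, 5 H3.1 and 8 H4), 11 genes of replacement variants (2 H2A.X, 3 H2A.W, 3 H2A.Z and 3 H3.3) and 3 linker H1 genes. RNA was measured in whole 1-day-old seedlings of the wild-type accession Col-0 and of vil1-1, a mutant line of VIL1, with 3 libraries of each genotype that the series design calls biological replicates. VIL1 encodes a PHD finger protein that works with Polycomb repressive complex 2, which methylates histone H3. No transgene or agent was named for either genotype, and seeds of both had 3 days of dark stratification at 4 °C before growth at 22 °C under days of 16 h light and 8 h dark. The comparison asked how transcript levels differ between the genotypes just after germination.

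Core histones H2A, H2B, H3 and H4 form the protein spool around which DNA is wound, and linker histone H1 binds the DNA between spools. Replication-dependent histone genes are transcribed mainly in S phase and supply the histones that package newly made DNA. Replacement variants such as H3.3 and H2A.Z are made throughout the cell cycle and are exchanged into chromatin independently of replication. Plant histone mRNAs are polyadenylated, unlike the replication-dependent ones of animals, and a germinating embryo takes up DNA replication again after a dry, arrested state.

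Values came from 2 sources. Each of the 6 count files holds reads per gene, and here a library held 46917 to 66546 counts in all, so that 1 count was worth 15 to 21.3 CPM (counts scaled to a library total of 1000000). The other source, the authors' deposited table, compares vil1-1 with Col-0 for 25005 genes by log2 fold change, F score and p-value, next to a mean level. The sources used here do not say how that table relates to the count files, so values of both are given side by side and are not treated as independent of each other. All 41 histone genes are in the authors' deposited table, 31 had a count in every library, and 4 had 5 or fewer counts over the 6 libraries, of which HTA12 and H1.3 had none. VIL1 itself had 0 counts in all 6 libraries, where up to 3 counts (45.1 to 63.9 CPM) are compatible with a count of 0, so counts gave no check of which libraries carry the mutation. Its log2 fold change was -0.91 in the authors' deposited table.

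In the authors' deposited table many replication-dependent histone genes were called lower in vil1-1, while H3.3 genes were not called. The p-values of that table show little of the spread between libraries, as described below. From the count files 12 histone genes could be tested, and 0 were called. At a Benjamini-Hochberg adjusted p under 0.05, the authors' deposited table has 21 of the 41 histone genes lower in vil1-1 and 0 higher. Over its 25005 genes 7.13% passed in either direction, 3.58% lower and 3.56% higher. Of the 41, 26 were lower and 0 higher in the authors' deposited table at an unadjusted p under 0.05, where 9.23% of all its genes were lower and 7.75% higher. The 21 were 17 of the 27 replication-dependent genes, 3 of the 11 replacement variants and 1 of the 3 linker genes. Among genes of similar level in the authors' deposited table, with a mean log2 CPM of 4 to 10, the share called lower was 6.31%, and 21 of the 37 histone genes in that band were called lower. With p adjusted over the 8304 genes of that band alone, 15.7% of them passed in either direction, and 24 histone genes were lower, 18 replication-dependent, 5 replacement and 1 linker. Whole seedlings were extracted, so fewer cells that make histones and less histone RNA per cell cannot be told apart.

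Sizes were modest. The median log2 fold change of the replication-dependent genes in the authors' deposited table was -0.40, a ratio of 0.757, with values from -0.66 for HTA10 to 0.25 for HTB10, and 25 of the 27 were negative. The replacement variants had a median of -0.28 and the linker genes -0.13 in the authors' deposited table, where the median over all genes was -0.05. Within the replacement variants, the 5 H2A.X and H2A.W genes had a median of -0.44 and 2 calls, and the 6 H2A.Z and H3.3 genes a median of 0.02 and 1 call, again in the authors' deposited table. The count files did not separate them: the log2 ratios of summed CPM were -0.08 and -0.05, and both overlapped between genotypes. The value of -0.08 joins H2A.X at 0.15 and H2A.W at -0.56, each with overlap. No test of the difference between the sets was made, since genes are not replicates of a genotype.

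**Figure D1:**
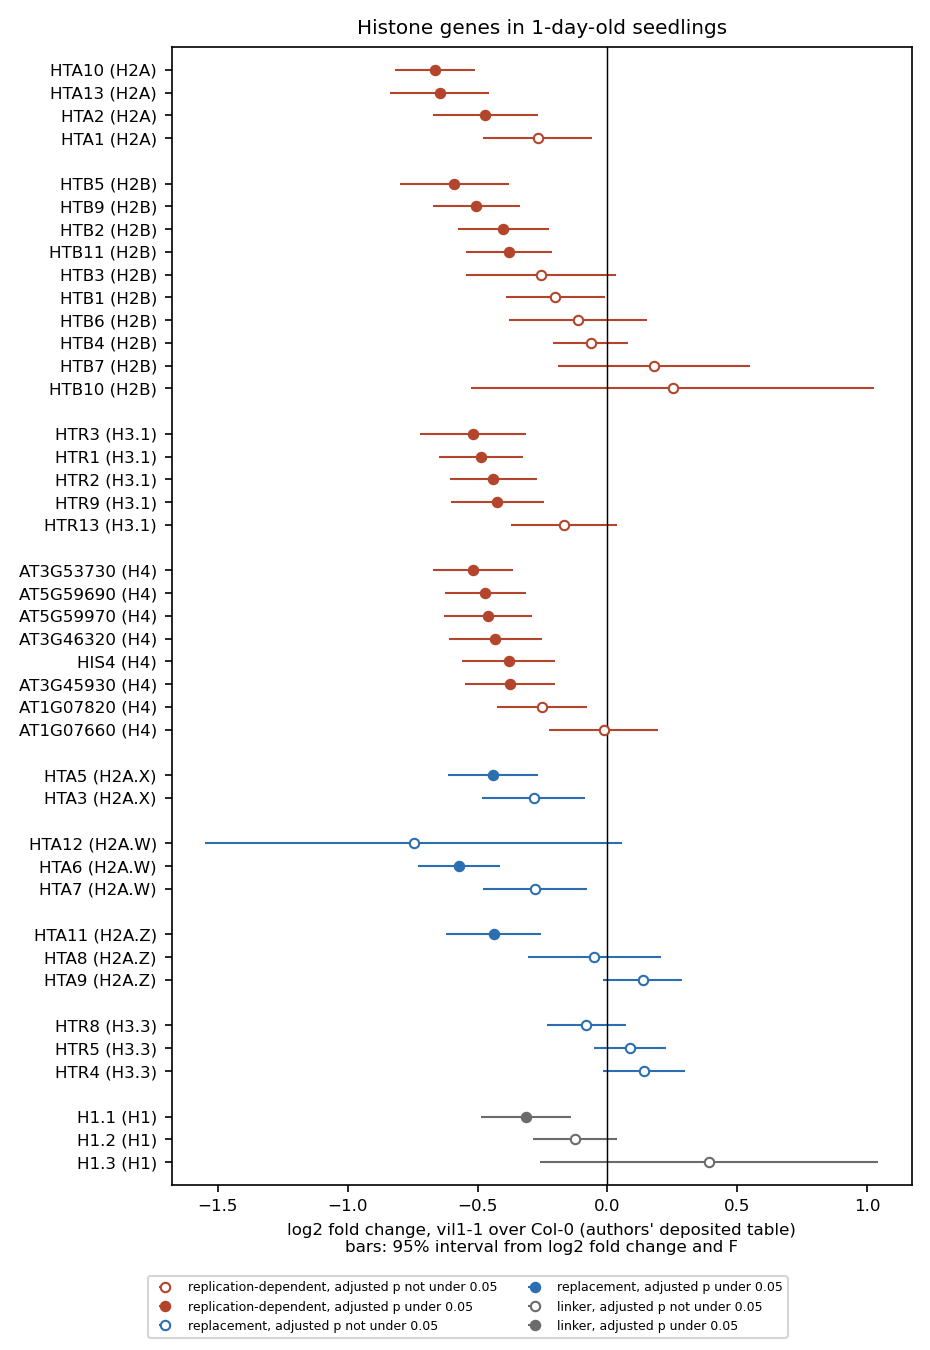
Log2 fold change between vil1-1 and Col-0 (x axis, log2 units, negative where vil1-1 is lower) for the 41 histone genes by class (y axis), from the authors' deposited table. Bars are 95% intervals computed from the log2 fold change and F, and filled points have a Benjamini-Hochberg adjusted p under 0.05: 17 of 27 replication-dependent genes, 3 of 11 replacement variants and 1 of 3 linker genes, with no filled point above 0.

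In the count files the replication-dependent set was the one of the 3 sets whose sum was separated between genotypes. Summed over the 27 replication-dependent genes, levels were 4072, 4087 and 4384 CPM in Col-0 replicates 1, 2 and 3 and 3133, 3040 and 3096 CPM in vil1-1 replicates 1, 2 and 3. Every vil1-1 library lay below every Col-0 library, with means of 4181 ± 176 (SD, n = 3) and 3090 ± 46.9 CPM (SD, n = 3) and a log2 ratio of the means of -0.44. These sums rest on 199, 272 and 283 counts in Col-0 and 147, 150 and 196 counts in vil1-1. An SD of 46.9 CPM is smaller than counting error alone would give at such counts, so it does not measure precision. The 11 replacement variants summed to 1862, 1593 and 2076 CPM in Col-0 and 1471, 1662 and 2164 CPM in vil1-1. Those groups overlapped, with means of 1844 ± 242 and 1766 ± 358 CPM (SD, n = 3 each) and a log2 ratio of -0.06. The linker genes summed to 491, 270 and 341 CPM in Col-0 and 469, 243 and 269 CPM in vil1-1, also with overlap. No p-value is given for these sums, because the genes were chosen with earlier results of these data known.

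**Figure D2:**
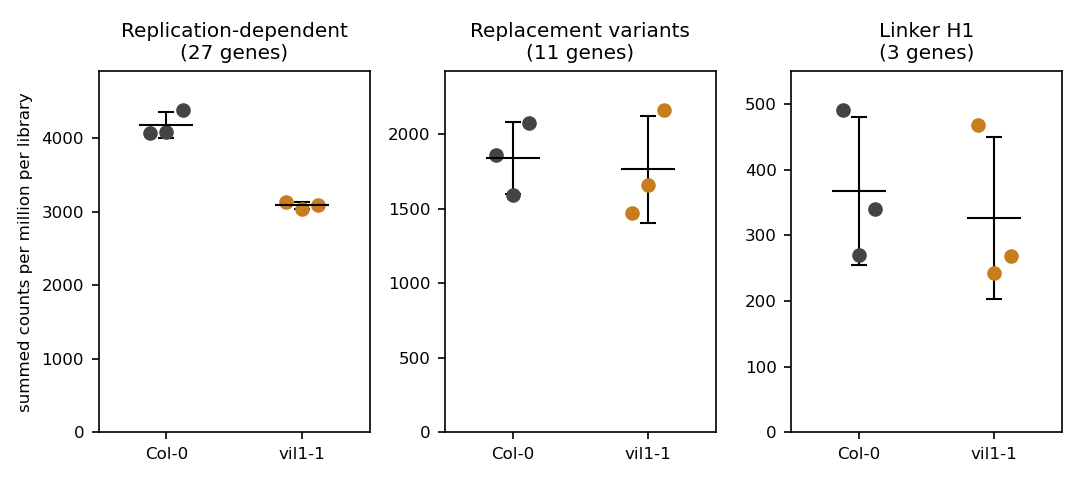
Summed CPM of the replication-dependent genes, replacement variants and linker H1 genes (y axes, CPM per library, each starting at 0) in the 3 Col-0 and 3 vil1-1 libraries. Points are libraries, horizontal lines are means and bars are SD over 3 libraries: the replication-dependent sums were 4072 to 4384 CPM in Col-0 and 3040 to 3133 CPM in vil1-1, while the other sets overlapped.

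Replication-dependent genes supplied most core histone counts in both genotypes. Their share was 68.6%, 72.0% and 67.9% in the Col-0 libraries and 68.1%, 64.7% and 58.9% in the vil1-1 libraries. The 95% exact binomial interval was 67.1 to 76.4% for the highest library, Col-0 replicate 2, and 53.4 to 64.2% for the lowest, vil1-1 replicate 3. These intervals cover counting error only. The group means were 69.5% ± 2.18 and 63.9% ± 4.65 (SD, n = 3 each), and the groups overlapped, because vil1-1 replicate 1 (68.1%) exceeded Col-0 replicate 3 (67.9%). Within H3, the H3.1 share was 55.8 to 62.6% in Col-0 and 47.8 to 64.2% in vil1-1, with overlap. Within H2A and its variants, the replication-dependent share was 25.7 to 41.8% in Col-0 and 18.2 to 32.8% in vil1-1, likewise with overlap.

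Single genes were near the limit of the counts. At this depth 12 of the 41 histone genes passed the filter on low counts of the edgeR quasi-likelihood test, and 0 of them were called at a Benjamini-Hochberg adjusted p under 0.05, against 3.72% of the 942 genes tested in either direction and 0.955% lower in vil1-1. At an unadjusted p under 0.05, edgeR gave 4 of the 12, namely HTB9, HTR2, HTB11 and HTA10, where 12.5% of all genes tested passed, and DESeq2 gave 1, where 5.84% of the 942 genes passed, and called 0 of the 12 after adjustment. Of the 12 log2 fold changes, 9 were negative, with a median of -0.33 beside -0.00 over all genes tested. Without the filter, 39 histone genes were tested, 25 were negative and their median was -0.34 beside 0.10 over all genes. Of these 39, 8 had an unadjusted p under 0.05 where 3.6% of the 14869 genes did, and 0 were called of 21 calls in all. In 6 of the 41 genes every vil1-1 library lay below every Col-0 library in CPM, and in 0 did every vil1-1 library lie above; over all genes with a count these shares were 3.33% and 3.75%. The 6 were HTB5, HTB9, HTB11, HTR1, HTR2 and H1.1. Of all 27 replication-dependent genes 5 were so separated, and of all 11 replacement variants 0. Among genes with 20 to 220 counts, these were 5 of 18 and 0 of 8, where all genes of that range gave 7.28%. That range encloses the 5 separated genes, from HTR1 with 24 counts to HTR2 with 212, so it is no independent check. With 8 genes, 0 cannot be told from 7.28%. The edgeR and DESeq2 p-values measure the spread between these samples alone. With 3 against 3 libraries an exact two-sided permutation p cannot fall below 0.10 for any one gene. In the authors' deposited table SE followed the level of a gene closely, at 0.0885 for H1.1 and 0.0891 for HTA5. Their mean log2 CPM was 7.29 and 7.26. The p-values of the authors' deposited table thus show little of the spread of each single gene between libraries.

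The H2A genes supply the main H2A of replicating chromatin, and the authors' deposited table calls 3 of the 4 lower. HTA10 (AT1G51060, chromosome 1) was the most abundant, with 389, 346 and 201 CPM in Col-0 and 234, 142 and 174 CPM in vil1-1. Means were 312 ± 98.1 and 183 ± 47.0 CPM (SD, n = 3 each), and the groups overlapped, since Col-0 replicate 3 (201 CPM) lay under vil1-1 replicate 1 (234 CPM). Its edgeR log2 fold change was -0.72 (SE 0.36, Benjamini-Hochberg adjusted p = 0.389). The authors' deposited table gives HTA10 -0.66, with a 95% interval of -0.82 to -0.51 and an adjusted p of 6.38e-15, the lowest log2 fold change among the replication-dependent genes. HTA13 held 10, 2 and 9 counts in the Col-0 libraries against 3, 3 and 2 in those of vil1-1, with overlap from the low Col-0 replicate 2, and HTA2 held 8, 10 and 5 and 2, 2 and 5, overlapping at 1 library of each genotype. Their log2 fold changes in the authors' deposited table were -0.65 (adjusted p = 2.93e-09) for HTA13 and -0.47 (adjusted p = 0.000192) for HTA2. The 4 genes summed to 778, 571 and 449 CPM in Col-0 and 469, 243 and 316 CPM in vil1-1, with overlap of 1 library from each genotype. HTA1, with 14 counts in all, was at -0.27 (adjusted p = 0.120) in the authors' deposited table.

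H2B pairs with H2A in the nucleosome, and the authors' deposited table calls 4 of its 10 genes lower. HTB9 (AT3G45980, chromosome 3) had 430, 361 and 558 CPM in Col-0 and 256, 324 and 190 CPM in vil1-1. The highest vil1-1 library (324 CPM) stood below the lowest Col-0 library (361 CPM), and the edgeR log2 fold change was -0.81 (SE 0.29, Benjamini-Hochberg adjusted p = 0.144), the smallest adjusted p among the 12 histone genes tested. The authors' deposited table puts HTB9 at -0.50 (adjusted p = 2.82e-07). HTB11, 15370 bases from HTB9 on the same strand, had 286, 391 and 310 CPM in Col-0 and 128, 203 and 253 CPM in vil1-1, with no overlap. For HTB11 edgeR gave -0.70 (SE 0.34, Benjamini-Hochberg adjusted p = 0.374) and the authors' deposited table -0.38 (adjusted p = 0.000231). HTB5 was separated too, at 5, 13 and 11 counts against 3, 5 and 4, or 102, 195 and 170 CPM against 63.9, 101 and 63.2 CPM, and has -0.59 (adjusted p = 2.08e-06) in the authors' deposited table. HTB2 held 6, 13 and 11 counts in the Col-0 libraries against 5, 8 and 8 in those of vil1-1, which overlapped in CPM, and has -0.40 (adjusted p = 0.000258) in the authors' deposited table.

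The H2B genes did not move as a block. HTB4, the H2B gene with the highest level per kilobase in the authors' deposited table, had 532, 331 and 496 CPM in Col-0 and 426, 426 and 521 CPM in vil1-1. The vil1-1 libraries lay inside the Col-0 range, with an edgeR log2 fold change of 0.08 (SE 0.25, Benjamini-Hochberg adjusted p = 0.940), while the authors' deposited table gives -0.06 with a 95% interval of -0.21 to 0.08. HTB1, HTB3, HTB6, HTB7 and HTB10 held 2 to 21 counts each over the 6 libraries, and were at -0.20, -0.26, -0.11, 0.18 and 0.25 in the authors' deposited table, none called. HTB10 overlaps the H2A.W gene HTA12 by 562 bases on the opposite strand, and the sources used here do not give strand use in counting, so reads of this pair cannot be told apart. Summed over the 10 genes, H2B was at 1637, 1608 and 1859 CPM in Col-0 and 1151, 1500 and 1374 CPM in vil1-1, and the groups did not overlap.

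H3.1 is the H3 form that is placed on DNA behind the replication fork, and the authors' deposited table calls 4 of its 5 genes lower. HTR2 (AT1G09200, chromosome 1) led the counts of all 41 genes, with 778, 721 and 682 CPM in Col-0 and 533, 446 and 553 CPM in vil1-1. No vil1-1 library reached the lowest Col-0 library, and the means were 727 ± 48.2 and 511 ± 56.9 CPM (SD, n = 3 each). The edgeR log2 fold change of HTR2 was -0.47 (SE 0.22, Benjamini-Hochberg adjusted p = 0.367), and the authors' deposited table gives -0.44 (adjusted p = 1.21e-05). HTR1 held 4, 6 and 8 counts in the Col-0 libraries against 3, 1 and 2 in those of vil1-1, a separation in CPM as well, with -0.49 (adjusted p = 3.23e-07) in the authors' deposited table. HTR3 and HTR9 were called lower in the authors' deposited table, at -0.52 (adjusted p = 2.68e-05) and -0.42 (adjusted p = 0.000134), although their mean CPM over the count files was higher in vil1-1. HTR9 held 5, 5 and 7 counts in the Col-0 libraries against 9, 3 and 3 in those of vil1-1, and HTR3 1, 1 and 3 and 2, 3 and 0. HTR13, 577 bases from HTR9, had 13 counts in all and -0.17 (adjusted p = 0.435) in the authors' deposited table. The 5 genes summed to 1003, 932 and 976 CPM in Col-0 and 917, 608 and 695 CPM in vil1-1, and the groups did not overlap. That separation rests largely on HTR2, which held 130 of 174 H3.1 counts in Col-0 and 82 of 117 in vil1-1. Of the other H3.1 genes, HTR1 alone was separated, and HTR3, HTR9 and HTR13 had a higher mean CPM in vil1-1.

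H3.3 is the replacement form of H3, found over transcribed genes, and none of its 3 genes was called in either direction, at an adjusted or an unadjusted p under 0.05, in the authors' deposited table. HTR5 (AT4G40040, chromosome 4), the highest of the 41 per kilobase in the authors' deposited table, gave 491, 331 and 372 CPM in Col-0 and 234, 182 and 474 CPM in vil1-1. The groups overlapped, because vil1-1 replicate 3 was near the top of the Col-0 range while replicates 1 and 2 were below it. Its edgeR log2 fold change was -0.30 (SE 0.30, Benjamini-Hochberg adjusted p = 0.764), against 0.09 in the authors' deposited table with a 95% interval of -0.05 to 0.23. The edgeR value of HTR5 moved to -0.86 without vil1-1 replicate 3 (unadjusted p = 0.0202, Benjamini-Hochberg adjusted p = 0.335) and to -0.06 without vil1-1 replicate 2. HTR8 had 184, 120 and 248 CPM in Col-0 and 192, 142 and 111 CPM in vil1-1, with overlap. For HTR8 edgeR gave -0.31 (SE 0.41, Benjamini-Hochberg adjusted p = 0.824) and the authors' deposited table -0.08. HTR4, 42 bases from HTR5 on the same strand, had 49 counts in all and 0.14 in the authors' deposited table. The 3 genes summed to 778, 556 and 775 CPM in Col-0 and 512, 567 and 758 CPM in vil1-1, overlapping, with a log2 ratio of the means of -0.20.

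H3.1 and H3.3 are near-identical proteins encoded by genes of different sequence. The 5 H3.1 genes encode 1 protein and the 3 H3.3 genes another, and these proteins differ at 4 of 136 residues, those of codons 32, 42, 88 and 91 counting the start codon as 1. The coding sequences of HTR2 and HTR5 differ at 90 of 411 bases, and no H3.1 gene shares a 50-base coding word with an H3.3 gene. The stretches from codon 28 to codon 36 below, from RefSeq TAIR10.1 and with codon 32 in capitals, show a codon that changes the residue between H3.1 and H3.3, among others that vary between copies.
HTR1: aaatcagctccgGCGaccggaggagta
HTR2: aaatctgctccgGCCaccggaggagtg
HTR3: aaatcagctccaGCCaccggaggagtg
HTR9: aaatcagctccaGCCaccggaggagtg
HTR13: aaatctgctccgGCCaccggaggagtg
HTR4: aaatctgcaccaACTactggtggagtc
HTR5: aagtctgcaccaACCactggaggagtc
HTR8: aaatcagcaccaACCaccggaggagtc
The first 5 are the H3.1 genes and the last 3 the H3.3 genes. No H3.1 gene has an intron in its coding sequence, and each H3.3 gene has 2 or 3.

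H4 has 1 form in plants and joins H3 in every nucleosome, and the authors' deposited table calls 6 of its 8 genes lower. AT3G53730 held 8, 15 and 12 counts in the Col-0 libraries against 3, 6 and 13 in those of vil1-1, with overlap through vil1-1 replicate 3. Its edgeR log2 fold change was -0.47 (SE 0.41, Benjamini-Hochberg adjusted p = 0.726), and the authors' deposited table gives -0.52 (adjusted p = 3.17e-09). AT1G07820 held 4, 16 and 14 counts in the Col-0 libraries against 3, 8 and 12 in those of vil1-1, with overlap, an edgeR log2 fold change of -0.36 (SE 0.42, Benjamini-Hochberg adjusted p = 0.824) and -0.25 (adjusted p = 0.0588) in the authors' deposited table.

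The other H4 genes had few counts. AT5G59970 held 4, 6 and 18 counts in the Col-0 libraries against 5, 3 and 3 in those of vil1-1, where Col-0 replicate 3 alone supplied most of the difference, and AT3G46320 held 4, 7 and 6 and 4, 1 and 3. AT5G59690 held 6, 8 and 11 counts in the Col-0 libraries against 4, 11 and 9 in those of vil1-1, means of 138 ± 28.3 and 150 ± 69.2 CPM (SD, n = 3 each), and so was not lower by its counts. AT3G45930 held 1, 7 and 5 counts in the Col-0 libraries against 2, 3 and 1 in those of vil1-1, and HIS4 4, 5 and 2 and 5, 2 and 2. All of these overlapped between genotypes in CPM, and the authors' deposited table gives them -0.46, -0.43, -0.47, -0.38 and -0.38 in the order named, with adjusted p from 2.09e-07 to 0.00104. AT1G07660 had 9 counts in all and was at -0.02 in the authors' deposited table. Summed over the 8 genes, H4 was at 655, 977 and 1100 CPM in Col-0 and 597, 689 and 711 CPM in vil1-1, where the low Col-0 replicate 1 made the groups overlap.

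The 8 H4 genes encode 1 protein, and some copies share long stretches of coding sequence. Untranslated regions were not compared. Up to 58.2% of the 50-base words in a coding sequence recur in another histone gene of the 41, for the pair AT3G45930 and AT3G46320, and 6 of the 8 H4 genes share such words. HIS4 and AT3G53730 shared none. Of the 27 replication-dependent genes 12 shared such words, and of the 11 replacement variants 0. The sources used here do not say how reads that match several copies were counted, so values of single H4 genes are uncertain. Among the 15 replication-dependent genes with no shared word, the authors' deposited table has 7 lower, and the median log2 fold change was -0.27. The 11 replacement variants, all without a shared word, had 3 lower and a median of -0.28. Among genes with no shared word, the 2 sets thus had like medians.

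H2A.X marks sites of DNA breaks once phosphorylated, and H2A.W is the H2A of plant heterochromatin. HTA5 (H2A.X) had 471, 421 and 496 CPM in Col-0 and 405, 385 and 742 CPM in vil1-1, where replicate 3 stood above every other library and replicates 1 and 2 below all of Col-0. The edgeR log2 fold change of HTA5 was 0.22 (SE 0.25, Benjamini-Hochberg adjusted p = 0.820), while the authors' deposited table calls it lower at -0.44 (adjusted p = 3.29e-05). The other H2A.X gene, HTA3, held 2, 1 and 1 counts in the Col-0 libraries against 2, 0 and 3 in those of vil1-1 and was at -0.28 (adjusted p = 0.0654) in the authors' deposited table. HTA6 (H2A.W) had 81.9, 195 and 294 CPM in Col-0 and 149, 142 and 158 CPM in vil1-1, so the widely spread Col-0 libraries lay on both sides of the vil1-1 libraries, and the authors' deposited table gives -0.57 (adjusted p = 1.75e-10). HTA7 (H2A.W) held 4, 12 and 5 counts in the Col-0 libraries against 1, 1 and 8 in those of vil1-1, with overlap and -0.28 (adjusted p = 0.0795) in the authors' deposited table. HTA12, with no counts, is listed at 3.85 CPM in the authors' deposited table, with -0.75 and a 95% interval of -1.55 to 0.06.

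H2A.Z sits beside gene starts and over responsive genes. HTA9 had 225, 150 and 263 CPM in Col-0 and 277, 405 and 221 CPM in vil1-1, overlapping, with an edgeR log2 fold change of 0.51 (SE 0.35, Benjamini-Hochberg adjusted p = 0.591), while the authors' deposited table gives 0.14. HTA11 held 5, 3 and 7 counts in the Col-0 libraries against 3, 4 and 6 in those of vil1-1, means of 85.3 ± 34.9 and 79.9 ± 15.5 CPM (SD, n = 3 each), and was called lower at -0.44 (adjusted p = 9.28e-05) in the authors' deposited table. HTA8 had 13 counts in all and -0.05 in the authors' deposited table.

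**Figure D3:**
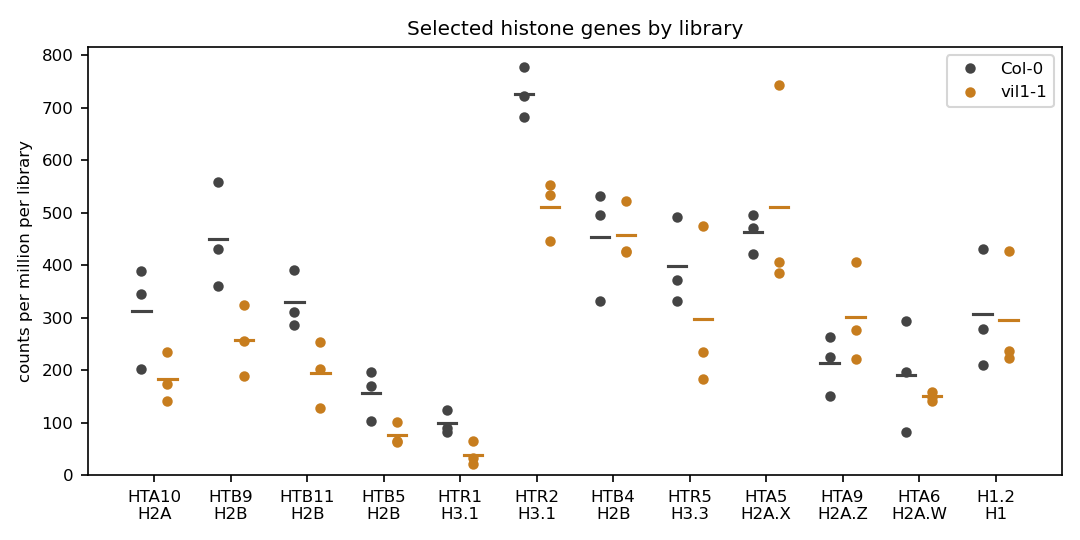
CPM (y axis, from 0) of 12 histone genes in each Col-0 and vil1-1 library (points), with group means as short lines. HTB9, HTB11, HTB5, HTR1 and HTR2 show no overlap between genotypes. HTB4 lies at 331 to 532 CPM in Col-0 and 426 to 521 CPM in vil1-1, and 1 vil1-1 library of HTA5 stands at 742 CPM.

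Linker histone H1 compacts chromatin between nucleosomes. H1.1 held 3, 4 and 4 counts in the Col-0 libraries against 2, 1 and 2 in those of vil1-1, a separation in CPM that rests on 16 counts, and is -0.31 (adjusted p = 0.00897) in the authors' deposited table. H1.2, the more abundant of these genes by counts, had 430, 210 and 279 CPM in Col-0 and 426, 223 and 237 CPM in vil1-1. Its groups overlapped, with an edgeR log2 fold change of -0.01 (SE 0.33, Benjamini-Hochberg adjusted p = 0.996), while the authors' deposited table gives -0.13. H1.3, a form known from drought and shade responses, had no counts and 5.24 CPM in the authors' deposited table, with 0.39 and a 95% interval of -0.26 to 1.04.

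Levels of single genes differed between the 2 sources. Scaled per kilobase of annotated exon, the highest levels in the authors' deposited table were HTR5 with 421, AT5G59690 with 387, HTR8 with 380 and HTA9 with 377 CPM per kb. In the count files they were HTR2 with 810, HTB9 with 485, HTA5 with 441 and HTB4 with 354 CPM per kb. Over 8123 genes of like level, the log2 ratio of count CPM to the CPM of the authors' deposited table had a median of -0.72 and 5th and 95th percentiles of -2.65 and 1.73. HTR2 (1.67) and HTA5 (1.66) lay near the upper end, and HTR1 (-1.69), HTA3 (-1.70) and H1.1 (-1.76) below the median. Which H3.1 gene is the most abundant therefore depends on the source: HTR2 by counts and HTR1, with 305 CPM per kb, by the authors' deposited table.

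**Figure D4:**
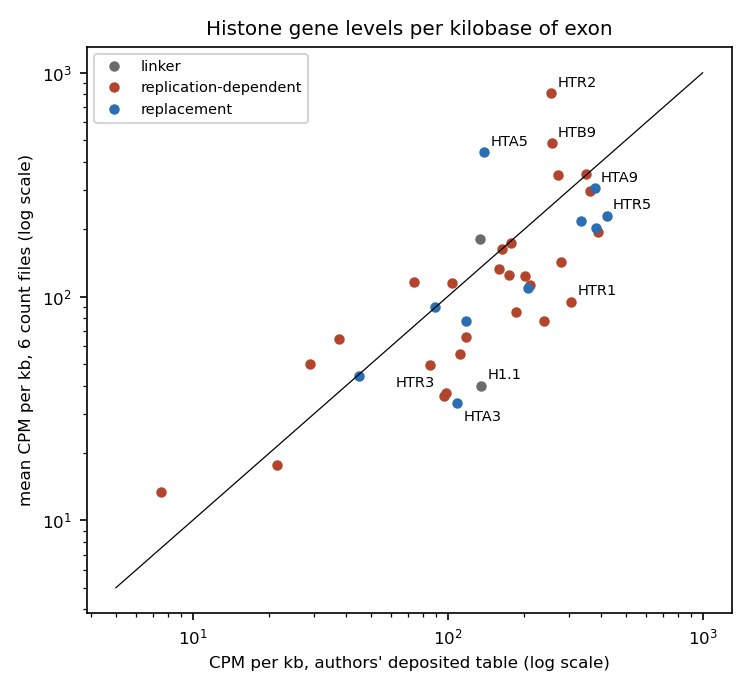
Level per kilobase of exon in the authors' deposited table (x axis, CPM per kb, log scale) against the mean over the 6 count files (y axis, CPM per kb, log scale) for the 39 histone genes with a count. The line marks equal levels: HTR2 stands at 255 and 810 CPM per kb, HTR1 at 305 and 94.9.

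Genes that work beside the histones in S phase were examined as lists. Of 31 genes of DNA replication and of the passage into S phase, the authors' deposited table has 6 lower and 0 higher and a list median of -0.25 on the log2 scale. For this list and the mitosis list below, the shares over all genes were 3.58% lower and 3.56% higher. Among genes with a mean log2 CPM of 4 to 10, 6.31% were lower. Ordered by p in the authors' deposited table, the first 4 of the 6 were PCNA2 at -0.54 (adjusted p = 2.56e-05), TSO2 at -0.37 (adjusted p = 0.000241), PCNA1 at -0.45 (adjusted p = 0.000829) and MCM6 at -0.57 (adjusted p = 0.0108). PCNA1 and PCNA2 encode the sliding clamp of DNA polymerase, TSO2 a ribonucleotide reductase subunit that supplies nucleotides and MCM6 a subunit of the replicative helicase. The counts of the 31 genes summed to 697 to 902 CPM in Col-0 and 426 to 679 CPM in vil1-1, without overlap. PCNA2 held 2, 3 and 4 counts in the Col-0 libraries against 3, 2 and 4 in those of vil1-1, and PCNA1 2, 6 and 2 against 6, 5 and 1. So neither PCNA gene was clearly lower by its counts. TSO2 held 11, 21 and 14 counts against 5, 8 and 14, and MCM6 4, 4 and 2 against 0, 1 and 1. Of 14 genes of G2 and mitosis, 2 were lower in the authors' deposited table, the cyclin gene CYCB1;3 at -1.09 (adjusted p = 0.00763) and the Aurora kinase gene AUR2 at -0.81 (adjusted p = 0.0129), and the 14 together had 12 Col-0 counts and 10 vil1-1 counts. Of 21 genes of histone chaperones and deposition factors, which carry histones to DNA, the authors' deposited table calls 0, and their median was 0.01. At an unadjusted p under 0.05, 3 of the 21 were lower and 1 higher, beside 9.23% and 7.75% of all genes of the authors' deposited table. Of 8 further histone loci, 5 are in the authors' deposited table and 0 were called, with 0 at an unadjusted p under 0.05, and together they held 2 counts.

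Markers of other tissues moved in part with genotype. Of 12 seed maturation genes, which are active in the ripening embryo, the authors' deposited table has 10 higher in vil1-1, beside 3.56% of all its genes. Their list median was 0.90 on the log2 scale. Their summed level was 90.2 to 205 CPM in Col-0 and 263 to 384 CPM in vil1-1, without overlap. These sums rest on only 25 counts in Col-0 and 49 in vil1-1, and 2 of the 12 had 0 counts in all libraries. Ranked by p, the first 4 in the authors' deposited table were RAB18 at 1.58 (adjusted p = 2.60e-42), EM1 at 1.89 (adjusted p = 1.50e-23), CRA1 at 0.98 (adjusted p = 2.69e-13) and EM6 at 1.33 (adjusted p = 2.07e-12). Of the 2 endosperm markers, MAN7 was higher at 1.14 (adjusted p = 1.05e-11) and EPR1 was at 0.14 in the authors' deposited table, and their sum ranged from 77.5 to 135 CPM in Col-0 and from 0 to 162 CPM in vil1-1. The 5 seed coat markers had 0 counts in every library, and 0 of the 4 listed in the authors' deposited table passed at an adjusted or an unadjusted p under 0.05. The 7 photosynthesis genes that mark the green seedling summed to 3176 to 3765 CPM in Col-0 and 3000 to 3730 CPM in vil1-1, and 0 were called in the authors' deposited table, with 2 lower and 1 higher at an unadjusted p under 0.05. The part of these markers in the histone result was not tested.

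Promoters of plant histone genes carry short conserved words, the best known of which is the octamer CGCGGATC. In the 250 bases before the annotated gene start, read on both strands, the octamer occurred in 7 of 27 replication-dependent genes, 2 of 11 replacement variants and 1 of 3 linker genes, and in 37 of 27443 promoters of protein-coding nuclear genes (0.135%). Its 12 matches lay 10 to 126 bases upstream, with a median of 72.5. Among histone genes called lower in the authors' deposited table it was in 8 of 21, and among the others in 2 of 20, namely HTR5 and AT1G07660. The promoters of 4 genes from RefSeq TAIR10.1 are shown whole, each on the strand of its gene and with the matched words in capitals. Each gene has the most counts among those with a match in its replication-dependent class (H2A, H2B, H3.1 or H4). All 4 were called lower in the authors' deposited table, so they are examples picked with the result known. HTA10 (chr1:18926561-18926810, plus strand), HTR2 (chr1:2972335-2972584, minus strand) and AT5G59690 (chr5:24051224-24051473, plus strand) show the octamer, and HTB9 (chr3:16898014-16898263, minus strand) the hexamer ACGTCA.
HTA10: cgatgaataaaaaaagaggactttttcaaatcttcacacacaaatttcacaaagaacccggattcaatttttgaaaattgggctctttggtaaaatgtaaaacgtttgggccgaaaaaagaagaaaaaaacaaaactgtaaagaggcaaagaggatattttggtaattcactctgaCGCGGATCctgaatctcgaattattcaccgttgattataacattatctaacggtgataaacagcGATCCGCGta
HTR2: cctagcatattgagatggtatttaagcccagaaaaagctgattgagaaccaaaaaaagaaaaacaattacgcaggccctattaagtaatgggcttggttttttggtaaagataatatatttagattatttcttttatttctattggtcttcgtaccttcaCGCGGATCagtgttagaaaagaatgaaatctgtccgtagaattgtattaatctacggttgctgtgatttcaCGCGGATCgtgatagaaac
HTB9: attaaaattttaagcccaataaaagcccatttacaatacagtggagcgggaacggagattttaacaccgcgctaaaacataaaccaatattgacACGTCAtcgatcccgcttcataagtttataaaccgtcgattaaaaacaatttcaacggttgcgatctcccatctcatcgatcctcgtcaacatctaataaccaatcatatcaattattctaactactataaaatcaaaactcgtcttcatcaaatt
AT5G59690: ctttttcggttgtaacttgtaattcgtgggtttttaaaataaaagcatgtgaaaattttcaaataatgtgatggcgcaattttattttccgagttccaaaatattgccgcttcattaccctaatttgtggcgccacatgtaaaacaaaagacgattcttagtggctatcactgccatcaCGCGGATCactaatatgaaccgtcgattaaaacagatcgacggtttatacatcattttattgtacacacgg
HTA10 and HTR2 hold the octamer at 2 places each, and HTA10 has its second match in the reverse orientation.

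The other octamer matches are shown with up to 12 bases on each side, on the strand of the gene, with the octamer or its reverse complement in capitals. They lie at chr1:2077776-2077807 (minus strand, H1.1), chr3:7229310-7229341 (plus strand, HTA13), chr5:24116317-24116348 (minus strand, HTA6), chr5:26120688-26120719 (minus strand, HTR1), chr5:3271058-3271089 (minus strand, HTR9), chr4:18558946-18558974 (minus strand, HTR5) and chr1:2368695-2368726 (plus strand, AT1G07660).
H1.1: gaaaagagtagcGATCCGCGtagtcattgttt
HTA13: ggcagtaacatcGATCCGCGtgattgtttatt
HTA6: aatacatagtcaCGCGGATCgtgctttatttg
HTR1: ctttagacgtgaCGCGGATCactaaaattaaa
HTR9: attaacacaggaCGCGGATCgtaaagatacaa
HTR5: gtttatttcagcGATCCGCGacggtttgt
AT1G07660: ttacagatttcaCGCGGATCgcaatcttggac
HTR5 is the H3.3 gene that was at 0.09 in the authors' deposited table, so the word was also present before a gene that was not called. Its upstream 250 bases overlap another gene by 99 bases.

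**Figure D5:**
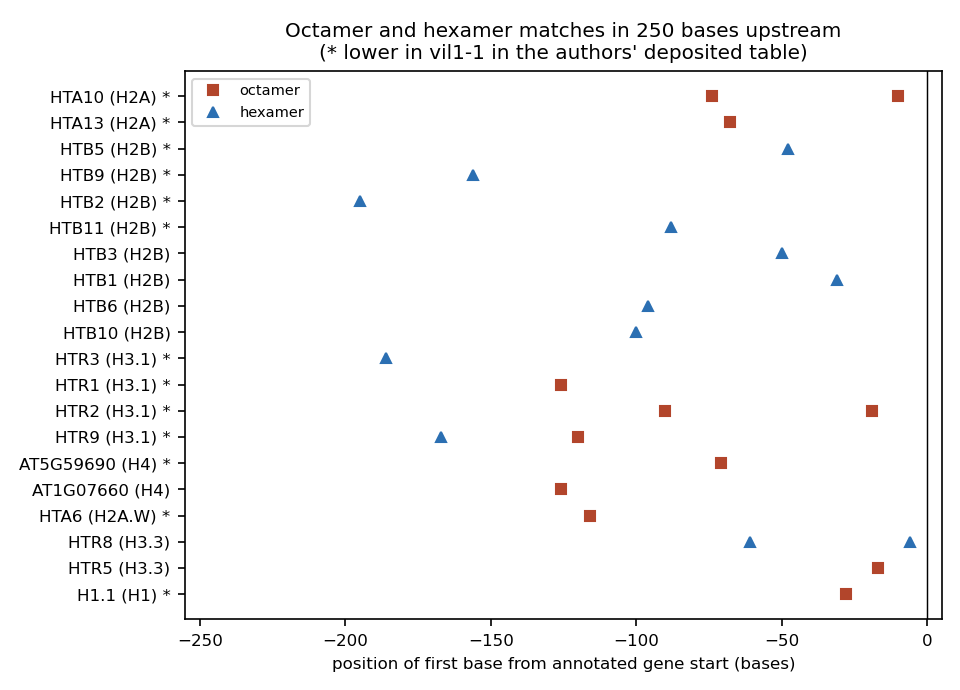
Position of octamer (squares) and hexamer (triangles) matches in the 250 bases upstream of the annotated gene start (x axis, bases from the gene start) for the histone genes with a match (y axis). Asterisks mark genes that the authors' deposited table calls lower: the octamer matches lie within 126 bases of the start, and 8 of the 10 genes with one carry an asterisk.

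Other words divided the classes in another way. The hexamer ACGTCA occurred in 8 of 10 H2B promoters and in 10 of 27 replication-dependent ones, against 7.69% of all promoters, and in 6 of the 21 genes lower in the authors' deposited table and 5 of the other 20. The 4 E2F words searched (TTTCCCGC, TTTGGCGC, TTTGCCGC and TTTCGCGC), which bind E2F factors of the G1 to S transition, occurred in 3 of 27 replication-dependent promoters and 0 of 11 replacement ones, against 1.41% of all promoters. The nonamer CATCCAACG was in 0 of the 41 windows and in 0.149% of all promoters. These matches describe letters in a fixed window and were not related to binding.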

How the data were processed

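RNA was sequenced from whole 1-day-old Col-0 and vil1-1 seedlings, with 3 libraries per genotype, grouped by sample title. Bowtie2, featureCounts and edgeR and the build TAIR10 are named in the submitters' processing notes; the sources used here do not give tool versions, library kit, strand setting or the treatment of reads with several matches. The authors deposited unnormalized whole-number read counts for each gene and library, with totals of 48868, 66546 and 64554 in Col-0 replicates 1 to 3 and 46917, 49341 and 63303 in vil1-1 replicates 1 to 3. The authors also deposited a table of 25005 genes that gives, for each, the log2 fold change, the log2 of mean CPM, the p-value and the score F.

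From the counts, CPM (per 1000000 counts of the library), sums over genes and shares were computed. Genes were tested with edgeR 4.0.16 in R 4.3.3 (quasi-likelihood F test, TMM factors, default filter on low counts, a model of genotype alone, Benjamini-Hochberg adjustment over all genes tested), and DESeq2 1.42.0 was an alternative. The fitting code was first tested on simulated counts with known changes. SE was obtained as the size of the log2 fold change over the root of F, and a 95% interval is 1.96 SE to each side. Adjusted p-values of the authors' deposited table were computed here over its 25005 genes. Every replicate pair differed beyond sampling noise (chi-square per degree of freedom 1.11 to 1.46).

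Genes named with values in every library are those called in either source and the 2 of each class with the most counts; list genes are those called, up to 4 by smallest p. Members and lists were chosen with earlier results of these data known. Shared 50-base words, promoter words and sequences come from RefSeq TAIR10.1, to which 32835 of 33602 loci matched. Coordinates are those of that annotation.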

Additional observations from a re-analysis of the deposited data

How the results depend on the processing

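In the edgeR fit, 0 histone genes were called under every setting tried: RLE factors, library totals, 2 other filters, DESeq2, the replicate block and each library left out. Calls over all genes were 35; they were 21 with no filter, 8 with DESeq2 and 19 to 36 with 1 library left out, lowest without vil1-1 replicate 2. With the replicate number as a block 35 genes were called. Deviations of same-numbered libraries correlated at -0.02 to 0.06, and those of differently numbered libraries at -0.10 to 0.09. No pairing by number was seen, but with so few counts per library these values cannot exclude a shared batch. With 1 library left out, direction changed for H1.2 (-0.35 to 0.27; highest without Col-0 replicate 1, and positive also when vil1-1 replicate 2 or 3 was out, at 0.13 and 0.17), HTA5 (-0.18 to 0.38; negative without vil1-1 replicate 3) and HTB4 (-0.12 to 0.19; negative without Col-0 replicate 2, and -0.02 without vil1-1 replicate 3), none of which was called, and HTR5 moved between -0.86 and -0.06. Over all settings the adjusted p of HTB9 was 0.0744 to 0.836 and that of HTA10 0.136 to 0.990.

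The log2 ratio of the replication-dependent sum was -0.46 to -0.40 with 1 library left out, -0.41 with TMM factors and -0.42 without HTR2. That of the replacement sum was -0.24 to 0.05, and that of the linker sum -0.52 to 0.10, or -0.96 without H1.2, which leaves 16 counts. The difference in the replication-dependent share was -7.72 to -3.13 percentage points. In the authors' deposited table, Benjamini-Yekutieli adjustment left 1050 of 1784 calls and 20 of 21 histone genes, without H1.1. Counting only H2A.Z and H3.3 as replacement variants gave a median of 0.0185 in place of -0.28. After seeing the data, 2 alternatives were added: leaving out genes with a shared 50-base coding word left 11 of 29 histone genes called, and adjustment over genes with a mean log2 CPM of 4 to 10 alone called 24 (18 replication-dependent, 5 replacement and 1 linker) among 1300 of 8304 genes. The cause was not tested. Depth limits all single-gene counts: 3 counts were worth 45.1 to 63.9 CPM, above the mean level of several histone genes.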
